A study of Ovis aries with 15 samples.

Results

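The genes described here are the protein folding, quality control and degradation machinery of the endoplasmic reticulum (ER) in sheep kidney. They are the 197 genes, of 25592 in the deposited table, that carry the KEGG entry for protein processing in the ER. The 13 genes of that entry that signal the unfolded protein response or apoptosis, or that serve as its usual markers, were left out by the rule (*ERN1*, *ATF6*, *EIF2AK3*, *ATF4*, *DDIT3*, *XBP1*, *HSPA5*, *HSP90B1*, *EIF2AK2*, *NFE2L2*, *BAX*, *BAK1* and *BCL2*). For the choice of genes the rule uses the annotation column and this list of names, and no measured value. It also sets apart a library with a liver-like profile, described below. The annotation column assigns the entry by similarity, and 16 of the 197 genes, such as *ANKRD33B* and *PHLDB1*, have names that are not known for this pathway. Another 28 are copies listed by a LOC number.

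RNA-seq was run on kidneys of male Dorper and Small-tailed Han crossbred sheep aged 4 months, after 21 d of feeding. The CON group ate a basal diet. To it were added 500 µg/kg (dry matter) of the mould toxin aflatoxin B1 in the AFB1 group, and the same dose together with 800 mg/kg of curcumin (CUR) in the AFB1_CUR group. Each group held 6 sheep, of which 5 were sequenced, and the total count was 50255295 to 68747047 per library. The members took 1.51% to 1.75% of the counts in CON, 1.47% to 1.80% in AFB1 without replicate 1 and 1.54% to 1.95% in AFB1_CUR.

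The library labelled AFB1 replicate 1 went against its tissue label. Its mean log2(FPKM + 1) over 18 hepatocyte markers was 10.63, against 1.25 to 2.67 in the other 14 libraries, and 6 of its 8 proximal tubule markers were under 1 FPKM. The comparisons therefore rest on 14 libraries, and values with all 15 are given where they end a call and, for the counts, at the end. Within the 14, AFB1 replicate 2 and AFB1_CUR replicate 2 had plasma cell scores of 4.36 and 4.47 over 7 markers, against 1.02 to 2.44 in the other 12 libraries. No plasma cell marker was under 1 FPKM in either of these 2 libraries. Their B cell scores were 2.49 and 4.10, against 0.33 to 1.15. In such bulk tissue, fewer cells of a type and less RNA per cell cannot be told apart.

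Secreted and membrane proteins enter the ER through the SEC61 translocon, receive N-glycans from the oligosaccharyltransferase, and fold with the help of lectins, disulfide isomerases and the ER Hsp70 system. Chains that fail to fold are recognised, drawn back through a membrane ligase complex, extracted by the p97 ATPase (VCP) and handed to the proteasome, a route called ER-associated degradation (ERAD). Folded cargo leaves in COPII vesicles. The tubule cells of the kidney carry large amounts of membrane transporters that pass through this system.

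In the CON kidney the members were abundant. FPKM scales fragments to transcript length and library size, so it allows genes to be compared. The median over the 5 CON libraries was above 100 FPKM for 11 members, between 10 and 100 for 98, between 1 and 10 for 60, and at most 1 for 28. A gene was tested if it had at least 1 FPKM in at least 4 of the 14 libraries, and 171 members passed. Their median level was 15.1 FPKM, against 6.08 FPKM over all 13394 tested genes. The members also varied little between CON sheep, with a median coefficient of variation (SD over mean) of 13.5%, against 17.5% for all tested genes.

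The 26 members that were not tested stayed at or below 3.78 FPKM in the 14 libraries. They comprised 15 genes with a symbol, such as *CRYAA*, *HSPA6*, *MAPK10*, *UGGT2*, *SEL1L2* and *LMAN1L*, and 11 LOC copies. None was without a read in all 15 libraries.

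**Figure D1:**
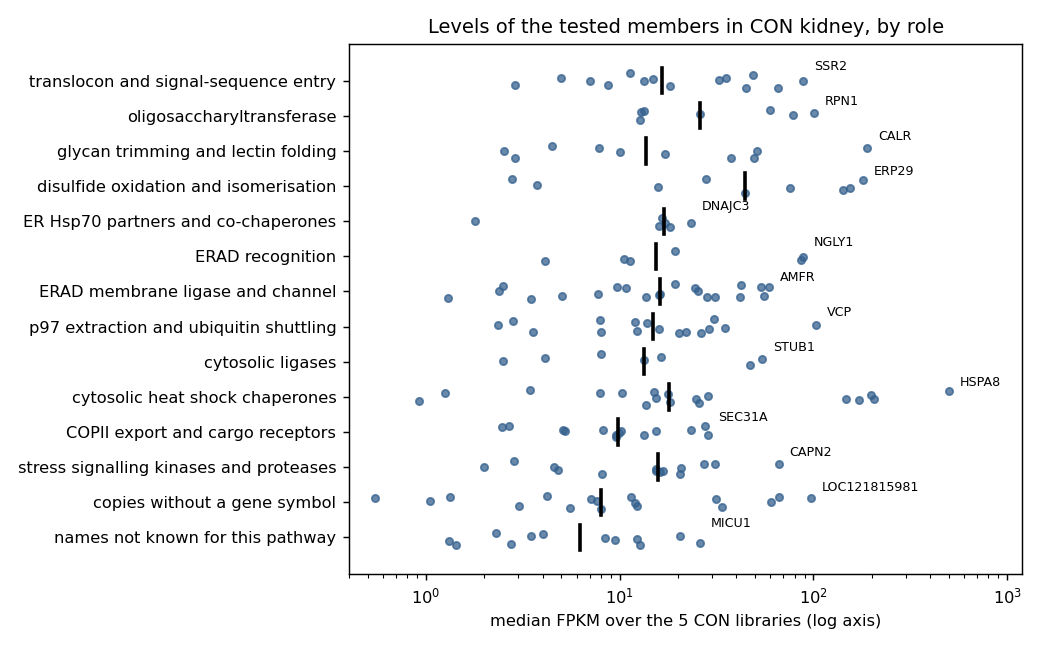
Level of each of the 171 tested members in CON kidney, grouped by role. Each point is a gene's median FPKM over the 5 CON libraries (log axis), black bars are the role medians, and the highest gene of each role is named. HSPA8 stands highest at 503 FPKM, and the disulfide enzymes have the highest role median, 44.3 FPKM.

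The cytosolic chaperones gave the highest single levels. *HSPA8*, the constitutive cytosolic Hsp70, had a median of 503 FPKM in CON, and it overlaps *CLMP* and *LOC132657867* on the same strand, so reads may be shared. The stress-inducible Hsp70 gene *HSPA1A* followed at 206 FPKM, the Hsp90 genes *HSP90AA1* and *HSP90AB1* at 199 and 172 FPKM, and the small heat shock protein gene *CRYAB* at 147 FPKM. *CRYAB* was also among the 6 tested members that varied most between CON sheep, with 147 ± 71.5 FPKM (SD, n = 5). Within the ER lumen the leaders were the lectin chaperone *CALR* at 190 FPKM, *ERP29* at 181 FPKM and the disulfide isomerase *PDIA3* at 155 FPKM. *VCP*, the p97 motor of ERAD, had 103 FPKM. At the low end of the tested members with symbols lay *HSPA1L* at 0.914 FPKM, *HSPA4L* at 1.25 FPKM and the E2 enzyme *UBE2D1* at 1.30 FPKM.

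Between AFB1 and CON, the change with the smallest p among the members was in *HSPA1A*, which was 1.85-fold lower in AFB1. By the screening conditions of the study (unadjusted p under 0.05 and fold change above 1.5, here with edgeR's quasi-likelihood test), 1 member was called higher and 3 lower. Over all tested genes, 0.672% were called higher and 1.1% lower, against 0.585% and 1.75% of the members, so the members' shares were close to the background. At an unadjusted p under 0.05 alone, 5 members were higher (2.92%, background 2.1%) and 7 lower (4.09%, background 2.9%). After Benjamini-Hochberg adjustment edgeR called 0 members and 0 genes in all (0.0%), with a smallest adjusted p of 0.880 among the members, and DESeq2 called 0 members and 19 genes. The libraries of the groups did not overlap in 6 members (3.51%, background 1.79%). The median log2 fold change was 0.05 over the members and 0.02 over all tested genes.

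*HSPA1A* encodes the inducible Hsp70 that refolds damaged cytosolic proteins. It measured 166, 224, 191, 206 and 259 FPKM in CON. The 4 AFB1 libraries in the fit gave 112, 69.6, 132 and 135 FPKM, and replicate 1 of that group gave 123 FPKM. All AFB1 libraries lay below all CON libraries. The log2 fold change was -0.89 (SE 0.22), with an unadjusted p of 0.00145 and an edgeR adjusted p of 0.880. It was between -1.04 and -0.70 when any 1 of the 14 libraries was left out, and each of these fits kept its unadjusted p under 0.05.

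*HSPA1A* lies at chr20:26604033-26605958 on the minus strand, in the coordinates of the deposited table. A gene with the same annotation, *LOC121815981* (chr20:26592480-26594933), lies 9099 bases away and carries the same KEGG orthology number. Sequences of the 2 genes were not compared here, but Hsp70 genes of 1 orthology number may share reads, so the split between them is uncertain, and *HSPA1L* overlaps all 1926 bases of *HSPA1A* on the opposite strand. *LOC121815981* had a mean of 278 CPM (counts scaled to library size) in CON and 206 CPM in AFB1 (two-sided exact permutation test, p = 0.111). Summed, the 2 genes had a mean of 730 CPM in CON and 450 CPM in AFB1. The sum was 631 to 829 CPM in CON and 295 to 623 CPM in AFB1, without overlap (two-sided exact permutation test, p = 0.0159, the smallest that 5 against 4 libraries allow). The sum was chosen after the values were seen.

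The other cytosolic heat shock genes did not show a like difference. Of 18 tested, *HSPA1A* was the 1 with an unadjusted p under 0.05, and the median log2 fold change of the role was -0.03. *DNAJB1*, the co-chaperone of Hsp70, had 28.4 ± 1.9 FPKM in CON (SD, n = 5) and 26.2 ± 2.15 in AFB1 (SD, n = 4). *HSPH1*, its nucleotide exchange factor, had 18.4 ± 4.46 and 19.0 ± 3.2 FPKM, and *HSP90AA1* 199 ± 40.5 and 215 ± 56.3 FPKM.

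*PPP1R15A* (GADD34) brings a phosphatase to eIF2α and so ends the translational arrest of the stress response. Its levels were 20.7, 22.1, 28.9, 19.5 and 20.7 FPKM in CON and 19.1, 18.7, 15.6 and 16.1 FPKM in AFB1. The AFB1 libraries were again all lower than the CON libraries, by a smaller margin (log2 fold change -0.38, SE 0.11, unadjusted p of 0.00414, edgeR adjusted p of 0.957). The gene overlaps *PLEKHA4* on the opposite strand by 732 bases, and the strand setting of the counting is not given in the sources used here.

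*NGLY1* removes N-glycans from glycoproteins that ERAD has brought to the cytosol. The CON libraries gave 31.1, 87.9, 65.4, 96.6 and 98.9 FPKM, and the AFB1 libraries 46.4, 35.8, 35.2 and 42.8 FPKM. CON replicate 1 was lower than any AFB1 library, whereas the other 4 CON libraries were higher than all of them. The log2 fold change was -0.93 (SE 0.34), with an unadjusted p of 0.0168 and an edgeR adjusted p of 0.957. The other recognition genes had an unadjusted p of 0.05 or more: *EDEM1*, a mannosidase-like factor, had 11.5 ± 1.02 FPKM in CON (SD, n = 5) and 13.9 ± 4.43 in AFB1 (SD, n = 4), and the lectin gene *OS9* 82.8 ± 7.19 and 79.9 ± 6.07 FPKM.

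*PLAA*, a ubiquitin-binding partner of p97, was the 1 member higher in each of the 4 fitted AFB1 libraries than in any CON library on both the CPM and the FPKM scale. It measured 7.87, 8.34, 8.43, 7.71 and 7.09 FPKM in CON and 10.2, 9.22, 8.75 and 9.96 FPKM in AFB1, and 7.7 FPKM in AFB1 replicate 1, within the CON range. The gap between the groups was narrow, and the log2 fold change was 0.27 (SE 0.09, unadjusted p of 0.0109, edgeR adjusted p of 0.957). Another p97 cofactor, *UBXN6*, was lower (log2 fold change -0.34, SE 0.14, unadjusted p of 0.0332), with the unadjusted p above 0.05 in 4 of the 14 fits without 1 library. *VCP* itself had 104 ± 4.60 FPKM in CON (SD, n = 5) and 111 ± 6.66 in AFB1 (SD, n = 4). The remaining members without overlap on the CPM scale, *SAR1A*, *UBE2G2* and *UBE2D2*, differed by log2 fold changes of 0.19, -0.13 and 0.16 and overlapped on the FPKM scale.

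At the entry gate of the ER, *TRAM1*, which helps nascent chains into the translocon, was higher in AFB1. It measured 4.42, 6.10, 4.95, 4.54 and 6.63 FPKM in CON and 9.58, 6.27, 6.28 and 7.73 FPKM in AFB1. The ranges overlapped, with AFB1 replicate 2 highest (log2 fold change 0.48, SE 0.16, unadjusted p of 0.00888, edgeR adjusted p of 0.957). The translocon core *SEC61A1* had 47.4 ± 3.66 FPKM in CON (SD, n = 5) and 51.4 ± 11.5 in AFB1 (SD, n = 4). Of 14 tested entry genes 12 had a positive log2 fold change, with a role median of 0.12, against 53.4% and 0.02 over all tested genes. Without AFB1 and AFB1_CUR replicate 2 these were 8 of 14 and 0.04.

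**Figure D2:**
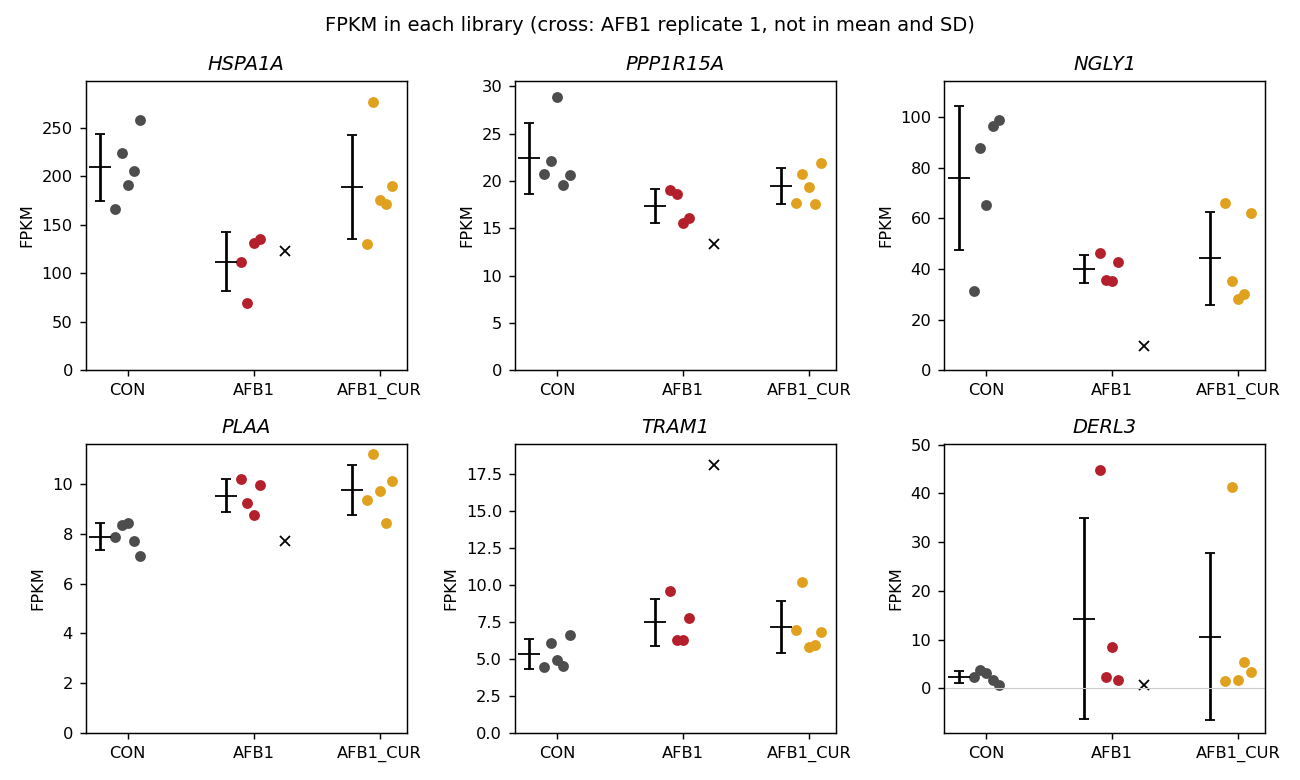
FPKM of 6 members in every library of CON, AFB1 and AFB1_CUR (linear axes). Points are libraries, horizontal marks with bars are the mean ± SD, and the cross is AFB1 replicate 1, which is outside the mean. HSPA1A and PPP1R15A are lower and PLAA higher in every fitted AFB1 library than in any CON library, whereas the DERL3 means rest on 1 high library in each of the AFB1 and AFB1_CUR groups.

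The disulfide isomerases showed a mixed picture within the AFB1 group. *PDIA4* had an unadjusted p under 0.05 without reaching the 1.5-fold limit, with 44.3, 46.2, 45.8, 35.7 and 42.5 FPKM in CON and 87.1, 41.3, 39.5 and 62.0 FPKM in AFB1 (log2 fold change 0.41, SE 0.19, unadjusted p of 0.0492). *PDIA3* gave 161, 180, 153, 155 and 136 FPKM in CON and 235, 165, 172 and 194 FPKM in AFB1 (log2 fold change 0.28, SE 0.13, unadjusted p of 0.0495). In both genes AFB1 replicates 2 and 5 were above all CON libraries, and replicates 3 and 4 lay within the CON range. Without AFB1 replicate 2 the log2 fold changes were 0.20 and 0.22, and neither kept an unadjusted p under 0.05. The loss was not particular to that library. *PDIA4* lost it in 12 and *PDIA3* in 10 of the 14 fits without 1 library, and in 5 and 6 of 9 alternative fits.

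*DERL3* codes for a derlin of the ERAD channel that is typical of cells with heavy secretion, such as plasma cells. Its 5 CON libraries held 2.38, 3.84, 3.25, 1.81 and 0.611 FPKM. The AFB1 libraries held 44.8, 2.40, 8.42 and 1.64 FPKM, and the AFB1_CUR libraries 1.53, 41.2, 1.71, 5.37 and 3.25 FPKM. The high values belong to replicate 2 of each group, and the groups overlapped. The log2 fold change between AFB1 and CON was 2.50 (SE 1.05, unadjusted p of 0.0323, edgeR adjusted p of 0.957) and 0.83 without AFB1 replicate 2, with its unadjusted p then above 0.05. With all 15 libraries it was 2.24 (unadjusted p of 0.0576). The plasma cell genes *JCHAIN* and *MZB1* had 559 and 77.6 FPKM in AFB1 replicate 2 and 856 and 46.5 FPKM in AFB1_CUR replicate 2, against at most 82.3 and 6.97 FPKM in the others. Over the 14 libraries the log2 CPM of *DERL3* and the plasma cell score had a Pearson r of 0.98, and 0.97 over the 12 libraries without these 2. Both values were the highest among the members. The other derlins did not follow it: *DERL1* had 24.6 ± 2.49 FPKM in CON (SD, n = 5) and 25.4 ± 3.75 in AFB1 (SD, n = 4), and *DERL2* 16.0 ± 2.2 and 15.2 ± 1.37 FPKM.

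The last called member, *ANKRD33B*, is not known for a part in this pathway. It was lower in AFB1 (log2 fold change -0.68, SE 0.30, unadjusted p of 0.0398), with 7.45 to 20.1 FPKM in CON and 5.41 to 9.04 FPKM in AFB1. CON replicate 5 was the highest, and without it the log2 fold change was -0.33. With all 15 libraries the unadjusted p was 0.0728. *PRKCSH*, the glucosidase II subunit, also had an unadjusted p under 0.05 (log2 fold change -0.21), which was lost in 7 of 9 alternative fits and in 6 of the 14 fits without 1 library. With all 15 libraries the log2 fold change was -0.02.

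**Figure D3:**
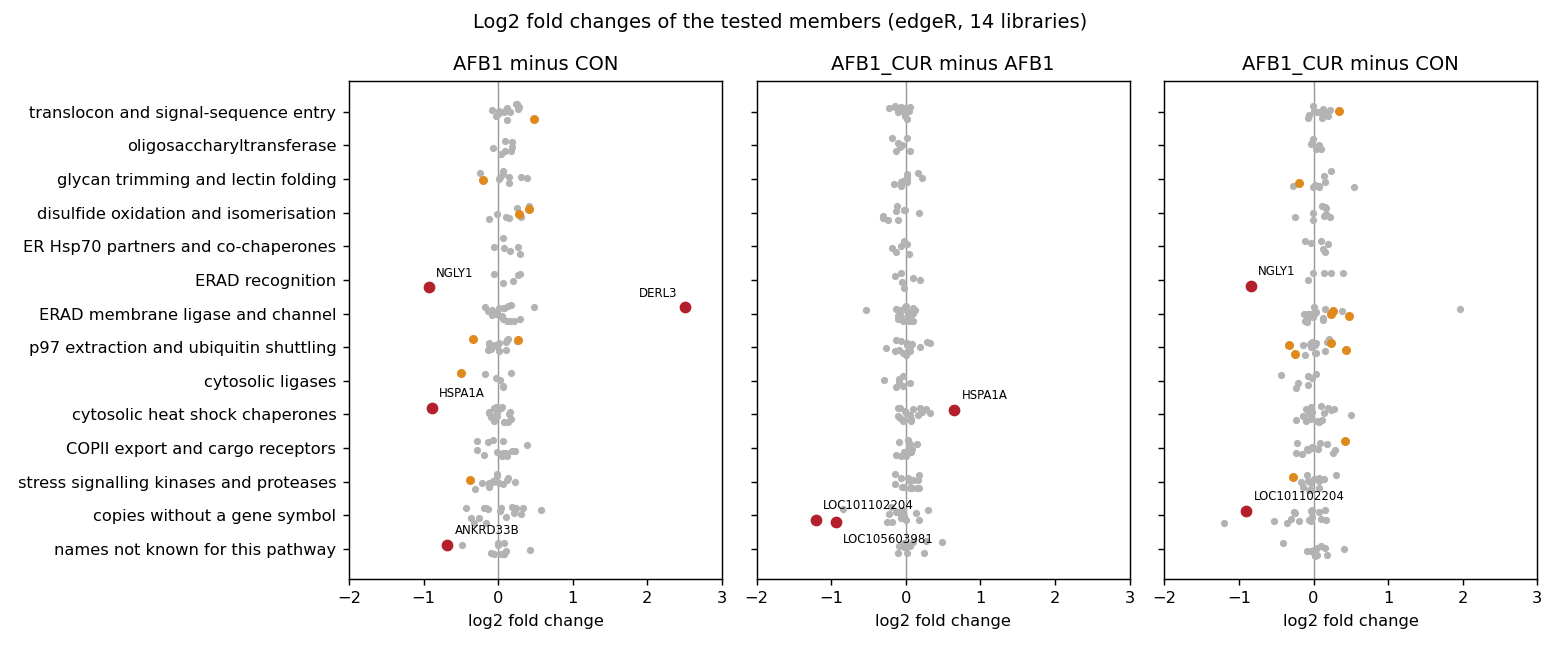
Log2 fold changes of the 171 tested members in the 3 comparisons, grouped by role. Each point is a gene: grey points have an unadjusted p of 0.05 or more, orange points are under 0.05, and large red named points also pass the 1.5-fold limit. Most members lie close to 0 in every role, and 4, 3 and 2 members are called in the 3 comparisons.

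Between AFB1_CUR and AFB1, which asks what CUR changed in sheep given AFB1, *HSPA1A* was higher, and 2 low-level LOC genes that carry the orthology number of *EIF2S1* were lower. These 3 were also the members at an unadjusted p under 0.05. The 1 member called higher was 0.585% of those tested, where 0.448% of all genes were called higher. The 2 called lower were 1.17%, where 0.545% of all genes were. At an unadjusted p under 0.05 alone the background was 1.08% higher and 1.25% lower, against 0.585% and 1.17% of the members. Adjustment left 0 members and 0 genes in edgeR (0.0%), and 0 members and 3 genes in DESeq2. No member was free of overlap between these groups, against 0.612% of all tested genes.

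*HSPA1A* measured 131, 277, 176, 172 and 190 FPKM in the AFB1_CUR libraries. All but replicate 1 were above the highest AFB1 library, at 135 FPKM. The log2 fold change against AFB1 was 0.65 (SE 0.22, unadjusted p of 0.0114, edgeR adjusted p of 1), and against CON it was -0.24 (SE 0.21, unadjusted p of 0.269). These comparisons share libraries, so their values are not independent. With AFB1 and AFB1_CUR replicate 2 both left out, the log2 fold change against AFB1 was 0.48 and its unadjusted p was above 0.05, and with all 15 libraries it was 0.44 (unadjusted p of 0.105). For the 2 genes summed, AFB1_CUR had 617 CPM on average (two-sided exact permutation test against AFB1, p = 0.143).

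*LOC101102204* and *LOC105603981* carry the orthology number of *EIF2S1*, the eIF2α subunit whose phosphorylation halts translation during ER stress. They lie at chr2:8043164-8044669 and chr21:11479123-11480635, the latter inside *DLG2* on the opposite strand. *LOC101102204* had 7.00, 8.14, 1.91 and 4.33 FPKM in AFB1 and 1.47, 1.99, 3.66, 2.60 and 2.07 FPKM in AFB1_CUR. AFB1 replicate 4 fell inside the AFB1_CUR range, and the other 3 were above it (log2 fold change -1.21, SE 0.39, unadjusted p of 0.00782). *LOC105603981* had 2.52, 2.56, 1.15 and 1.99 FPKM in AFB1 and 0.838, 1.38, 1.25, 1.04 and 1.10 FPKM in AFB1_CUR. Its ranges overlapped through the same library (log2 fold change -0.94, SE 0.35, unadjusted p of 0.0180). With AFB1 and AFB1_CUR replicate 2 both left out its log2 fold change was -0.90 and its unadjusted p above 0.05, and limma on log2(FPKM + 1) gave -0.50. The adjusted p of edgeR was 1 for both. *EIF2S1* itself, also a member, had 9.22 FPKM on average in AFB1 and 11.1 FPKM in AFB1_CUR, with log2 fold changes of 0.18 against AFB1 and 0.30 against CON (unadjusted p of 0.0512). The LOC genes are tied to it by the orthology number alone, and reads may be shared among the 3, so these values are uncertain and the pair is not 2 independent observations.

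The folding genes showed small differences in this comparison. Of 9 disulfide enzymes 1 had a positive log2 fold change, with a role median of -0.12, against 50.0% and 0.00 over all tested genes, and none had an unadjusted p under 0.05. The median log2 deviation of this role from the CON mean was 0.36, -0.05, -0.09 and 0.43 in AFB1 replicates 2, 3, 4 and 5, so that replicates 2 and 5 were high and the other two were near the CON level. With AFB1 and AFB1_CUR replicate 2 both left out, 2 of the 9 were positive and the median was -0.07. *PDIA6*, a disulfide isomerase, had 91.1 ± 23.2 FPKM in AFB1 (SD, n = 4) and 78.5 ± 21 in AFB1_CUR (SD, n = 5). *UFD1*, the p97 adaptor for ubiquitinated chains, came next after the 3 genes above, with 38.1 ± 6.08 and 33.4 ± 3.82 FPKM (unadjusted p of 0.0733). *HERPUD1*, a stress-induced member of the ligase complex, had 59.9 ± 15.5 and 68.3 ± 12.3 FPKM.

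Between AFB1_CUR and CON, the member with the smallest p was *UBXN2A*, a p97 cofactor, which was higher in AFB1_CUR, and the 2 called members, *NGLY1* and *LOC101102204*, were lower. No member was called higher, where the background was 1.12%, and 2 (1.17%) were called lower, against 0.635%. At an unadjusted p under 0.05 alone, 7 members were higher (4.09%, background 3.31%) and 6 lower (3.51%, background 2.27%), shares close to those of all genes. Adjusted p under 0.05 was met by 0 members and 0 genes in edgeR (0.0%), and by 0 members and 2 genes in DESeq2. In 1 member the groups did not overlap (0.585%, background 0.836%).

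Among the 16 tested p97 and shuttling genes, 2 were higher and 2 lower at an unadjusted p under 0.05 (background 3.31% and 2.27%). *UBXN2A*, a p97 cofactor, had 2.15, 2.54, 3.25, 2.8 and 3.53 FPKM in CON and 4.26, 5.10, 4.2, 3.39 and 3.49 FPKM in AFB1_CUR. Of the AFB1_CUR libraries 3 were above all CON libraries, and the other 2 lay below CON replicate 5 (log2 fold change 0.44, SE 0.15, unadjusted p of 0.0115, edgeR adjusted p of 0.816). *PLAA* was at 9.34, 11.2, 9.72, 8.42 and 10.1 FPKM in AFB1_CUR (log2 fold change 0.23, SE 0.09, unadjusted p of 0.0198). The cofactors *NSFL1C* (p47) and *UBXN6* had log2 fold changes of -0.25 (SE 0.10) and -0.33 (SE 0.13), with unadjusted p values of 0.0224 and 0.0285.

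Of the 21 tested genes of the membrane ligase and channel, 3 were higher and none lower at that threshold, where 3.31% and 2.27% of all tested genes were. *UBE2J1*, an E2 ubiquitin-conjugating enzyme that works with the HRD1 ligase at the ER membrane, had 3.09 to 5.80 FPKM in CON and 5.15 to 9.64 FPKM in AFB1_CUR (log2 fold change 0.48, SE 0.22, unadjusted p of 0.0437). *UBE2D2* and *UBE2D3*, general E2 enzymes, had log2 fold changes of 0.24 and 0.26 (unadjusted p of 0.0399 and 0.0496). The other tested E2 genes, *UBE2D1*, *UBE2D4*, *UBE2G2* and *UBE2J2*, had log2 fold changes of 0.38, -0.09, -0.09 and -0.09 (unadjusted p of 0.102, 0.383, 0.179 and 0.299). *UBE2D2* was the member without overlap on the CPM scale, and AFB1_CUR replicate 2 was far above the rest at 35.2 FPKM. Without AFB1_CUR replicate 2, none of *UBE2J1*, *UBE2D2* and *UBE2D3* kept an unadjusted p under 0.05. The HRD1 gene *SYVN1* had 13.6 ± 0.813 FPKM in CON and 15.9 ± 6.32 in AFB1_CUR (SD, n = 5), and its partner *SEL1L* 15.6 ± 3.08 and 18.2 ± 3.24 FPKM.

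The 2 called members were *NGLY1* and *LOC101102204*. *NGLY1* had 66.3, 35.1, 28.0, 30.0 and 62.2 FPKM in AFB1_CUR, all below the 4 higher CON libraries except for replicate 1, which was above CON replicate 3 (log2 fold change -0.84, SE 0.32, unadjusted p of 0.0193, edgeR adjusted p of 0.816). Its unadjusted p was above 0.05 without AFB1_CUR replicate 3, without CON replicate 4, and with both replicate 2 libraries left out. *LOC101102204* had 2.31 to 6.24 FPKM in CON, overlapping AFB1_CUR (log2 fold change -0.90, SE 0.37, unadjusted p of 0.0295, and 0.0557 with all 15 libraries). It lost the unadjusted p under 0.05 in 5 of the 14 fits without 1 library and in 3 of 9 alternative fits. *PPP1R15A* was lower, at 17.7, 20.7, 19.4, 17.6 and 21.9 FPKM (log2 fold change -0.28, SE 0.10, unadjusted p of 0.0173). Without CON replicate 3 its log2 fold change was -0.17, and the unadjusted p was above 0.05 in both limma fits and with both replicate 2 libraries left out. *PRKCSH* had a log2 fold change of -0.19 (unadjusted p of 0.0435), and *TRAM1* and the COPII coat gene *SEC24D* had 0.34 and 0.42 (unadjusted p of 0.0409 and 0.0435). Of the 14 fits without 1 library, 7, 5 and 10 lost the unadjusted p under 0.05 for *PRKCSH*, *TRAM1* and *SEC24D*, in each case also the fit without AFB1_CUR replicate 2. With AFB1 and AFB1_CUR replicate 2 both left out, 0 members were called and 5 had an unadjusted p under 0.05.

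The genes that handle entry and folding in the lumen differed more between single libraries than between groups. Over the 46 tested members of the translocon, oligosaccharyltransferase, lectin, disulfide and ER Hsp70 roles, the median log2 CPM lay 0.31 above the CON mean in AFB1 replicate 2, 0.23 above it in AFB1 replicate 5 and 0.19 above it in AFB1_CUR replicate 2. The 5 CON libraries spanned -0.06 to 0.06, and AFB1 replicates 3 and 4 stood at -0.04 and -0.08. The 125 members of the other roles had medians of -0.03, 0.14 and -0.04 in the same 3 libraries. Among those roles the 6 ERAD recognition genes stood at 0.31, 0.29 and 0.19, as high as the entry and folding genes, so the deviation was not limited to the latter. The disulfide enzymes deviated most, by 0.36, 0.43 and 0.38.

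Plasma cell markers were high in 2 of these 3 libraries. *TXNDC5*, a disulfide isomerase, had 58.8 FPKM in AFB1 replicate 2, 65.8 in AFB1_CUR replicate 2 and 38.9 in AFB1 replicate 5, against 26.4 to 33.8 FPKM in CON. *PDIA6* had 103, 114 and 118 FPKM in that order, against 66.0 to 80.7 FPKM in CON. Over the 14 libraries the Pearson r with the plasma cell score was 0.80 for *TXNDC5* and 0.33 for *PDIA6*. Without AFB1 and AFB1_CUR replicate 2 it was 0.05 and -0.36. In AFB1 replicate 5 the *JCHAIN* level was 21.5 FPKM, within the CON range of 6.27 to 28.1 FPKM. The same 2 libraries, AFB1 replicate 2 and AFB1_CUR replicate 2, were also outside the other 12 in their T cell (4.11 and 4.43 against 1.75 to 3.23), macrophage (4.94 and 5.42 against 2.85 to 4.38) and fibroblast and smooth muscle scores (5.36 and 6.18 against 4.21 to 5.25). AFB1 replicate 2 had the highest hepatocyte score of the 14, 2.67 against at most 2.40. The part of these cell types in the values was not tested.

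**Figure D4:**
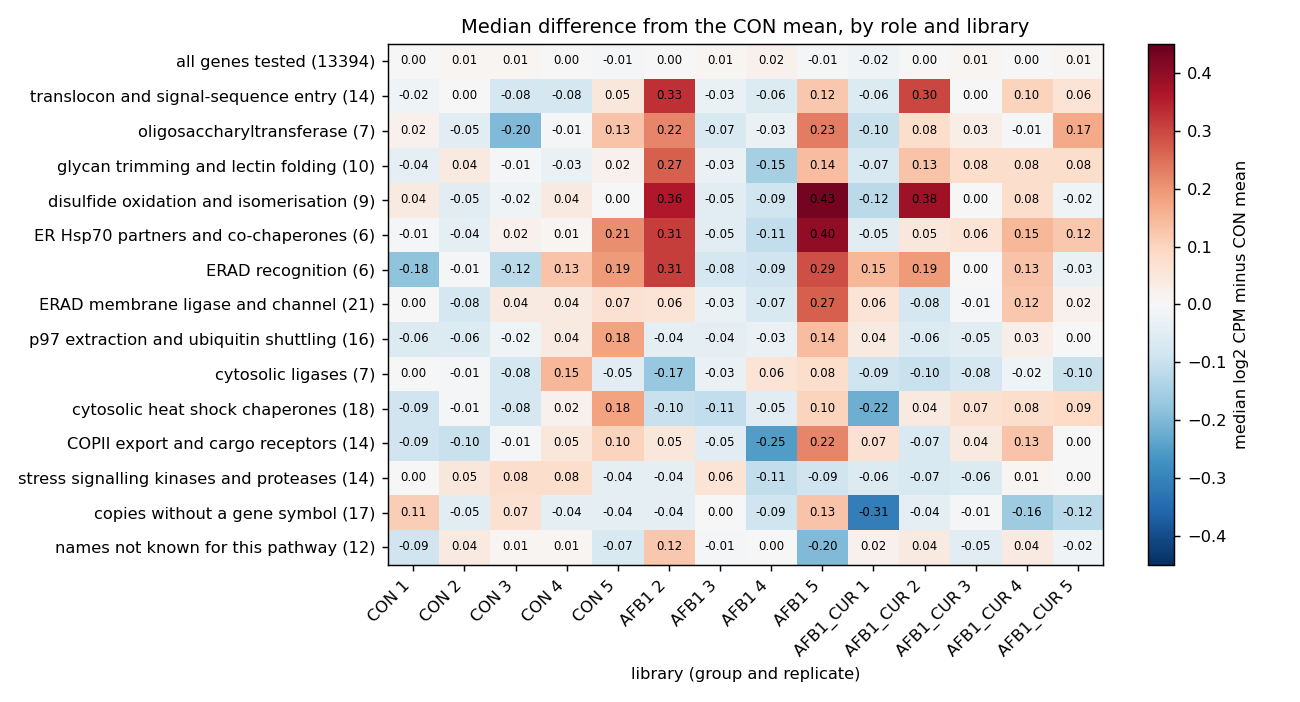
Median difference from the CON mean, in log2 CPM, for each role (rows, number of tested genes in brackets) and each of the 14 libraries (columns). Red is above and blue below the CON mean. In AFB1 replicate 2 the translocon, lectin, disulfide and ER Hsp70 rows stand at 0.27 to 0.36 and the ERAD recognition row at 0.31, and the disulfide row is at 0.43 in AFB1 replicate 5 and 0.38 in AFB1_CUR replicate 2, while all tested genes stay between -0.02 and 0.02.

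A small core followed the left-out chaperone *HSPA5* (GRP78), the main Hsp70 of the ER lumen, across the 14 libraries. *HYOU1*, its nucleotide exchange factor, had a Pearson r of 0.90 with *HSPA5* on the log2 CPM scale, *CALR* 0.87 and the co-chaperone *DNAJB11* 0.85. These were the members above 0.8, 3 of 171 (1.75%), against 0.0523% of all tested genes. *PDIA3* and *PDIA4* followed at 0.78 and 0.71. With the group means removed the values were 0.89, 0.88, 0.86, 0.81 and 0.72, and without AFB1 and AFB1_CUR replicate 2 they were 0.90, 0.86, 0.87, 0.78 and 0.77. The median over all members was 0.10, so most members did not follow *HSPA5*. The points share library preparation and depth, and these values are descriptions.

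Genes of the same machinery outside the KEGG entry were described from a separate list. In the list of 26 folding and signal peptidase genes, 24 were tested, of which *HERPUD2* is also a member. In AFB1 against CON 3 of the 24 had an unadjusted p under 0.05, all higher, where 2.1% of all tested genes were, and the median log2 fold change of the list was 0.16. *NUCB2*, a calcium-binding protein of the secretory pathway, was the 1 called (background 0.672%), with 1.74, 1.72, 1.27, 1.08 and 0.912 FPKM in CON, 3.98, 1.96, 1.9 and 2.18 FPKM in AFB1, and 2.96, 3.56, 1.68, 1.47 and 2.70 FPKM in AFB1_CUR. The 4 fitted AFB1 libraries were above all CON libraries, AFB1 replicate 1 was within CON at 1.43 FPKM, and AFB1_CUR overlapped CON. Its log2 fold change was 0.88 in AFB1 and 0.79 in AFB1_CUR against CON (unadjusted p of 0.00689 and 0.00958, edgeR adjusted p of 0.957 and 0.816). With limma on log2(FPKM + 1) these were 0.56 and 0.54, both under the 1.5-fold limit. *SEC11C*, a catalytic subunit of the signal peptidase, was higher in AFB1 than in CON (log2 fold change 0.40, unadjusted p of 0.00726, edgeR adjusted p of 0.957). It was lower in AFB1_CUR than in AFB1 (-0.54, unadjusted p of 0.000841, edgeR adjusted p of 1). Its levels were 27.4, 21.1, 18.4 and 18.6 FPKM in the fitted AFB1 libraries, 13.6 to 19.0 in CON and 11.7 to 17.6 in AFB1_CUR. AFB1 overlapped CON, and both comparisons share the AFB1 libraries, so their values are not independent. In AFB1_CUR against CON 3 were higher and 0 lower, where 3.31% and 2.27% of all genes were: *NUCB2*, the signal peptidase subunit *SPCS3* (log2 fold change 0.29, unadjusted p of 0.00573) and the selenoprotein *SELENOF* of the ER lumen (0.29, unadjusted p of 0.0132). Of the 13 genes that the rule left out, 3 were higher and 0 lower at an unadjusted p under 0.05 in AFB1 against CON (background 2.1% and 2.9%), and 0 in the other comparisons. These were *XBP1*, *HSP90B1* and *NFE2L2*, with log2 fold changes of 0.42, 0.40 and 0.34 and edgeR adjusted p values of 0.957. *XBP1* and *HSP90B1* were highest among the fitted libraries in AFB1 replicate 2, at 107 and 222 FPKM. *XBP1* was 57.8, 58.9 and 60.6 FPKM in the other fitted AFB1 libraries, against 48.1 to 59.1 FPKM in CON, and 104 FPKM in AFB1_CUR replicate 2. With these 2 libraries left out, 1 of the 13 was higher at an unadjusted p under 0.05. No enrichment was tested for either list.

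The library labelled AFB1 replicate 1 held these genes in other proportions. Of the 171 tested members 30 (17.5%) were above and 71 (41.5%) below the whole range of the other 14 libraries, where 9.62% and 61.3% of all tested genes were. Among the 14 translocon genes 8 were above and 2 below, and among the 14 COPII genes 7 and 3. *P4HB*, the disulfide isomerase that is also a subunit of prolyl hydroxylase, had 596 FPKM against 128 to 175 in the others. *LMAN1*, the cargo receptor for coagulation factors, had 50.0 FPKM against 7.93 to 17.3, and *TMEM181* 18.3 FPKM against 3.60 to 4.75. Lowest relative to the others were *PHLDB1*, *ANKRD33B* and *HSPA2*, with 2.29, 0.376 and 0.919 FPKM against medians of 20.2, 7.75 and 10.4.

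**Figure D5:**
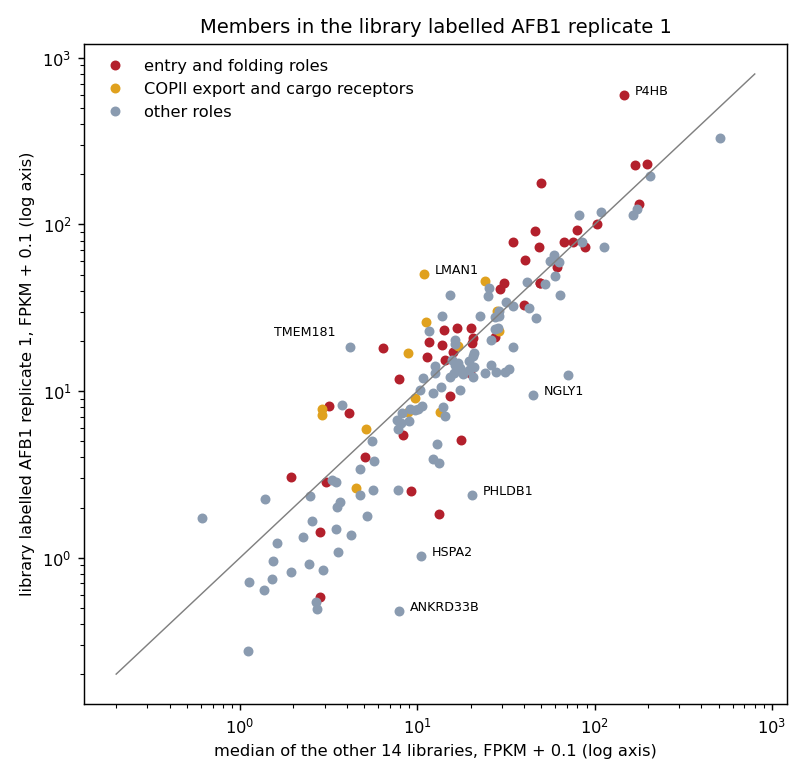
Level of each tested member in the library labelled AFB1 replicate 1 against its median in the other 14 libraries (FPKM + 0.1, both axes log). Points are genes and the line marks equal levels. Of the red points (entry and folding roles) 15 of 46, and of the yellow points (COPII) 7 of 14, are above the range of the other libraries, with P4HB at 596 FPKM, whereas PHLDB1, HSPA2 and ANKRD33B lie far below it.

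Including this library changed the counts. With all 15 libraries, 12 members were called higher in AFB1 than in CON (background 4.08%) and 2 lower (0.967%), of 172 tested. In AFB1_CUR against AFB1, 0 members were called higher (0.61%) and 7 lower (3.49%). Between AFB1_CUR and CON, 0 were called higher (0.878%) and 1 lower (0.238%). The median log2 fold change of the disulfide role in AFB1 against CON was 0.25 in the 14 libraries and 0.55 with all 15, and that of the translocon role 0.12 and 0.46. *HSPA1A* remained lower with all 15 libraries (log2 fold change -0.66, unadjusted p under the threshold).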

How the data were processed

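Kidney RNA-seq libraries of 15 sheep, 5 in each of CON, AFB1 and AFB1_CUR, were analysed. Per the submitters' processing notes, the authors trimmed reads with cutadapt 1.9, aligned them with HISAT2 2.2.1 and used StringTie 2.1.6, and they deposited raw counts and FPKM values per gene. Neither the genome build nor the strand setting of counting is given in the sources used here. The library kit marks strand. Groups were taken from the sample titles, since the treatment field numbers AFB1 upward, and doses from the study's methods. Total counts were 50255295 to 68747047 per library.

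Counts were TMM-normalised and tested with edgeR 4.0.16 (quasi-likelihood test, R 4.3.3) in 1 model over 14 libraries, without the library labelled AFB1 replicate 1. Genes with at least 1 FPKM in at least 4 libraries were kept. A gene was called when its unadjusted p was under 0.05 and its fold change over 1.5, after the study's screening, and Benjamini-Hochberg adjusted p values cover all 13394 genes. The p-values rest on the spread between sheep of a group. Per the paper the sheep shared pens and were treated through the feed. The labels do not give the pens, so each library was treated as independent and a pen effect could not be accounted for. Whether groups overlapped was read on TMM-normalised CPM. Deviations and correlations used log2(CPM + 0.5). Marker scores are means of log2(FPKM + 1). Alternatives used DESeq2 1.42.0, and limma 3.58.1 on log2(FPKM + 1) or log2(FPKM + 0.1). The fits were tested on simulated data. The members, roles and gene lists were chosen with earlier results of these data known. Gene roles were assigned from names and orthology numbers. Members were named where called, among the 4 smallest p values or the 6 smallest without overlap in a comparison, among the 8 highest or the 6 most variable in CON, or among the 3 farthest above or below in AFB1 replicate 1, in a fixed set of pathway genes, or called in a list outside the members. *JCHAIN*, *MZB1*, *TXNDC5*, the E2 genes, *NSFL1C*, *UBXN6*, *PRKCSH*, *EIF2S1*, and the uncalled genes of the lists outside the members were named after their values were seen. The same holds for *HSPA4L*. A withheld item is not reported here.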

Additional observations from a re-analysis of the deposited data

Results flagged for a closer look

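In groups of 4 or 5 libraries, 14 members (42 groups of values) were screened for a library far from the rest by Dixon's criterion, which chance meets in about 1 of 20 groups. It was met 7 times. *DERL3* was high in AFB1 replicate 2, at 44.8 FPKM against 1.64 to 8.42 in its group, and in AFB1_CUR replicate 2, at 41.2 FPKM against 1.53 to 5.37. *UBE2D2* was high in the same libraries, at 23.9 FPKM against 20.4 to 21 and at 35.2 FPKM against 19.8 to 22.8. *TRAM1* was high in AFB1_CUR replicate 2, at 10.2 FPKM against 5.80 to 6.97. In CON, *ANKRD33B* was high in replicate 5, at 20.1 FPKM against 7.45 to 10.3, and *PPP1R15A* in replicate 3, at 28.9 FPKM against 19.5 to 22.1.

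The library labelled AFB1 replicate 1, left out of the comparisons, had a hepatocyte marker score of 10.63 (mean log2(FPKM + 1) of 18 genes), against 1.6 to 1.97 in the CON libraries.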

How the results depend on the processing

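The 26 members under the FPKM limit were not tested, and no call passed edgeR's adjustment. For AFB1 against CON, AFB1_CUR against AFB1 and AFB1_CUR against CON in turn, 4, 3 and 2 members were called and 12, 3 and 13 had an unadjusted p under 0.05. All 15 libraries gave 14, 7 and 1 calls and 32, 10 and 6 at the unadjusted p, with median log2 fold changes of 0.178 and -0.124 in the first and second comparison. Limma on log2(FPKM + 1) gave 2 calls in the first comparison, with 7 at the unadjusted p, and 1 in the third. On log2(FPKM + 0.1) the median of the second comparison was 0.068, where the median of all genes was 0.07. Without the filter on low values the second comparison had 5 calls and 5 at the unadjusted p. In the third comparison, DESeq2 and a fit to the compared groups alone each gave 4 calls. Leaving out AFB1 and AFB1_CUR replicate 2 together, chosen after seeing the data, gave 1 call in the second comparison, and 0 calls and 5 at the unadjusted p in the third. With all 15 libraries, 4.08% of all tested genes were called higher and 0.967% lower in the first comparison. In the second these shares were 0.61% and 3.49%, and in the third 0.878% and 0.238%. No such share is given here for the other alternative counts, so whether they concern the members or all genes cannot be read from them. The causes of the changes between fits were not tested. No member with an unadjusted p under 0.05 changed sign under any of these fits.

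With 1 library left out at a time, calls ranged from 2 to 6, from 2 to 4 and from 0 to 4, and members at the unadjusted p from 7 to 16, from 3 to 7 and from 4 to 18. The lowest counts came without CON replicate 5 (2 calls) and AFB1 replicate 2 (7 at the unadjusted p) in the first comparison, and without CON replicate 4 (0 calls and 4) and AFB1_CUR replicate 2 (1 call and 4) in the third. The second had 5 to 7 members at the unadjusted p without any 1 of AFB1 replicates 2 to 5 or AFB1_CUR replicates 2 and 5. The third had 4 calls without AFB1_CUR replicate 3 and 7 at the unadjusted p without CON replicate 1. Medians of the members ranged from -0.003 to 0.081, from -0.043 to 0.024 and from 0.004 to 0.048.

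Replicate numbers do not stand for a shared pen or day in the labels. Deviations from the group means correlated between -0.29 and 0.58 over 13 same-numbered pairs, above 0.1 in 6, and 4 of 14 libraries correlated best with their own number, so the numbers were not taken to pair the samples. With the replicate number as a block, 2, 3 and 2 members were called.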
